A study of Mus musculus with 24 samples.

Results

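Cortices of 5xFAD mice homozygous for a Plcg2 knockout (Plcg2KO) were compared with cortices of 5xFAD mice labelled heterozygous for that knockout (Plcg2HET). The comparison took every library with those genotype labels, 6 of Plcg2KO and 6 of Plcg2HET, so 12 of the 24 libraries of the series. All mice were 7.5 months old, and each gave 1 library from total cortical RNA. Plcg2KO held 4 males and 2 females, and Plcg2HET held 3 of each sex. Mice are named by genotype and animal code, in which the letter gives the sex (Plcg2KO F2). The other 12 libraries came from 5xFAD mice wild type at both loci (WT) or lacking Trem2 (Trem2KO), 6 each. All 24 mice carried 5xFAD, human transgenes, mutant amyloid precursor protein included, driven by a neuronal Thy1 promoter, which lead to amyloid plaques. No cortex free of these transgenes was analysed here, so the differences below are within an amyloid background. The labels do not say how the Plcg2 allele was made or which mice were littermates.

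Plcg2 encodes phospholipase C gamma 2, which cleaves a membrane phosphoinositide into inositol trisphosphate, a calcium-releasing messenger, and diacylglycerol, an activator of protein kinase C. In the brain it is found mainly in microglia, the resident macrophages, where it acts below receptors that signal through immunoreceptor tyrosine-based activation motifs (ITAMs), TREM2 with its adaptor TYROBP and the Fc receptors among them. Around plaques, microglia that have TREM2 take on a state called disease-associated microglia (DAM), with high Itgax, Cst7 and Clec7a, and lower levels of homeostatic genes. The comparison asks, within the Plcg2 line, how cortex without the phospholipase differs from cortex of mice labelled as carrying 1 intact copy.

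The promoters of leading genes of the comparison are shown first, because they are microglial genes that were lower together. PU.1, encoded by Spi1, is the transcription factor that defines the macrophage lineage, and its core motif (GAGGAA, or TTCCTC on the other strand) is in capitals. Windows run from 250 bases before to 50 after the RefSeq start, in GRCm38.p6. They are Trem2 on the plus strand (chr17:48346151-48346450), Clec7a on the minus strand (chr6:129472730-129473029), Itgax on the plus strand (chr7:128129300-128129599) and Cst7 on the plus strand (chr2:150570165-150570464).
Trem2: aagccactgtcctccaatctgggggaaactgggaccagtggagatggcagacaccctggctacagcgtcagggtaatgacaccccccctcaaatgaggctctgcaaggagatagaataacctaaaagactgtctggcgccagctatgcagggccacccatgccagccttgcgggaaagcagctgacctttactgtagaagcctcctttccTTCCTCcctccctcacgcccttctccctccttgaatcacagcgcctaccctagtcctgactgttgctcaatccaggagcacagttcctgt
Clec7a: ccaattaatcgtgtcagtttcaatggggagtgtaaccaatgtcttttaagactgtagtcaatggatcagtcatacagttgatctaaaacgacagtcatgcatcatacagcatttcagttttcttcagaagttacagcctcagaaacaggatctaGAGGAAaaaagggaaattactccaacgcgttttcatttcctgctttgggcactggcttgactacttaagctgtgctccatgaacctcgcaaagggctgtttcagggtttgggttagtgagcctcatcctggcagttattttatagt
Itgax: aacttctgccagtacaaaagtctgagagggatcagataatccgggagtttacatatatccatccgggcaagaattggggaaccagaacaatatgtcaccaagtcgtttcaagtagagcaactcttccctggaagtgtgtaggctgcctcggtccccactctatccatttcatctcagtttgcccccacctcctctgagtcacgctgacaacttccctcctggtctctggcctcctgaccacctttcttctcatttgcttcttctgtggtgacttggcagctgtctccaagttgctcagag
Cst7: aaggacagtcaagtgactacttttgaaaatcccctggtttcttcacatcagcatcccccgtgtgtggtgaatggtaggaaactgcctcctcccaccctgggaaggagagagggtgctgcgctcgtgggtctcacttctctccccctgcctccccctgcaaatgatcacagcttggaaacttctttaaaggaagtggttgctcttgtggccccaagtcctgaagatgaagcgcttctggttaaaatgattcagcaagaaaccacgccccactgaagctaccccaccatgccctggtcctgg
The Trem2 and Clec7a windows each held 1 match, and the Itgax and Cst7 windows held 0. The motif was in 2 of the 8 promoters found among the 12 largest decreases, in 4 of the 9 found among the 12 largest increases, and in 26.7% of the 12162 promoters of tested genes. Searches for the E-box CACGTG (9.8% of those promoters) and the glucocorticoid element ACANNNTGT (4.4%), both strands, matched 1 of the 8 decreases each and 0 of the 9 increases. A match describes the letters of the window only.

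Plcg2 checked the labels. Its level in CPM (counts scaled to a common library total, with TMM factors) was 0.739 to 1.20 in the Plcg2KO libraries, with a median of 0.998. In Plcg2HET the lowest library had 5.89 (M3), the median was 11.6, and the highest had 19.8 (F1). The groups did not overlap, and the fitted log2 fold change was -3.50 ± 0.20 (SE), with an adjusted p of 3.36e-12 in edgeR's quasi-likelihood test. A two-sided exact permutation test on log2(CPM + 0.5), 6 against 6, gave p = 0.00216, the smallest it can give. The Plcg2KO mean was 8.20% of the Plcg2HET mean. Plcg2 in WT ran from 7.72 to 15.2 CPM, and Plcg2HET did not lie below it: the log2 difference from WT was 0.02 ± 0.17 (SE, adjusted p = 0.951). The RNA level therefore did not show the heterozygous label, and "Plcg2HET" names the label only throughout.

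Trem2, the lipid-sensing receptor itself, was also lower in Plcg2KO. It had 14.1 (M1) to 28.6 CPM (F2) with a median of 17.9 in Plcg2KO, against 56.1 (M3) to 139 CPM (F1) with a median of 82.8 in Plcg2HET. The groups were separate, with a log2 fold change of -2.09 ± 0.17 (SE, edgeR adjusted p = 2.36e-09) and an exact permutation p of 0.00216. The Plcg2KO minus WT difference was -1.89 and the Plcg2HET minus WT difference was 0.20.

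**Figure D1:**
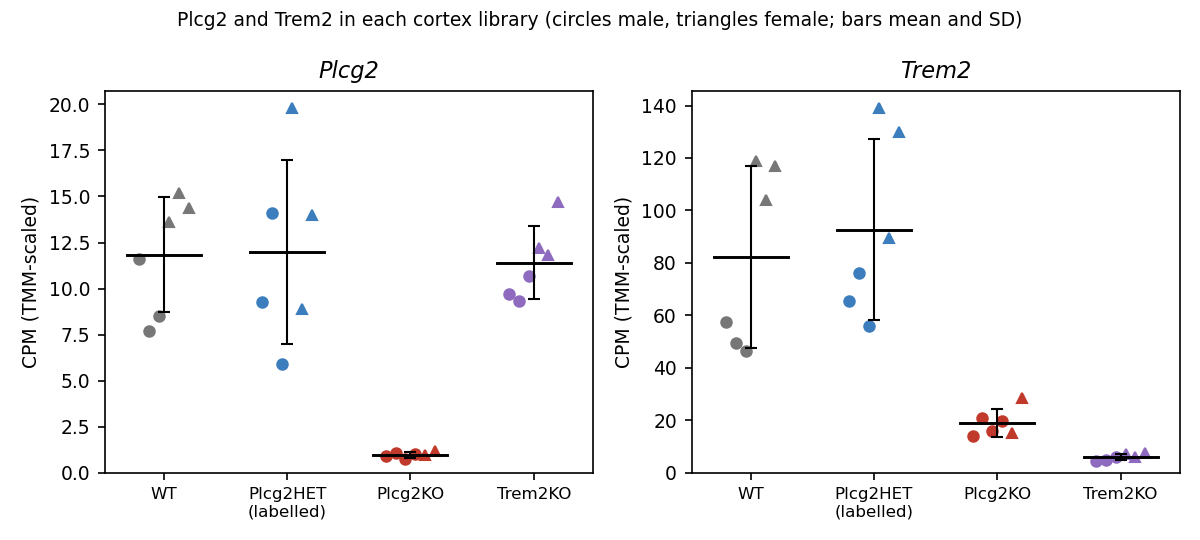
Plcg2 and Trem2 CPM (linear axis) in each library of the 4 genotypes, with circles for males, triangles for females, and bars for the mean and SD. The 6 Plcg2KO points sit at 0.739 to 1.20 CPM for Plcg2 and 14.1 to 28.6 CPM for Trem2, below all Plcg2HET points.

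The libraries held 49422827 to 81487044 counts in Plcg2KO and 36272966 to 68914247 in Plcg2HET. Markers of cortical neurons, astrocytes, oligodendrocytes, microglia and endothelial cells were present throughout, and X- and Y-linked genes fitted the sex letter of every animal code. Rn45s, a ribosomal RNA precursor, took 29.03% of counts in Plcg2HET F3 and 5.29% in F1, against 0.74 to 3.39% in Plcg2KO. Libraries also differed in how their levels followed the GC content of genes. The rank correlation of a library's deviations with GC content, across genes, was -0.558 to -0.276 in the 6 Plcg2KO libraries. Among the Plcg2HET libraries the sign differed: M1 had 0.365, M2 0.488, F1 0.542 and F3 0.277, whereas M3 had -0.440 and F2 -0.370. Across genes, the fold change correlated with GC content at a Spearman value of -0.498, as a description without a p, since genes share these libraries. The labels give no preparation batch, so the GC trend and the genotype cannot be told apart over all 12 libraries. A pair of further fits was therefore made. The first uses offsets that take out, library by library, any trend over GC content or gene length. The second compares Plcg2KO with only Plcg2HET M3 and F2, whose GC trend has the same sign (the GC-matched fit). Their values are given beside genes named by the methods rule and given a fold change with all libraries below. That holds where these fits end the call or move the value by more than 1.5 times. For genes chosen after their values were seen, Apoe, Fgr, Syk, Spi1, Csf1r, C4b and App among them, values in these fits are not given. For those genes, silence below does not mean that the call or the value held. The Spearman values of these fits with GC were 0.0113 and 0.0782. The GC-matched fit is not matched for gene length. The rank correlation of a library's deviations with exon length was 0.406 in Plcg2HET M3 and 0.379 in F2. It was 0.0288 to 0.241 in Plcg2KO and -0.271 to -0.1 in the other Plcg2HET libraries. What this does to the calls of that fit was not tested.

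**Figure D2:**
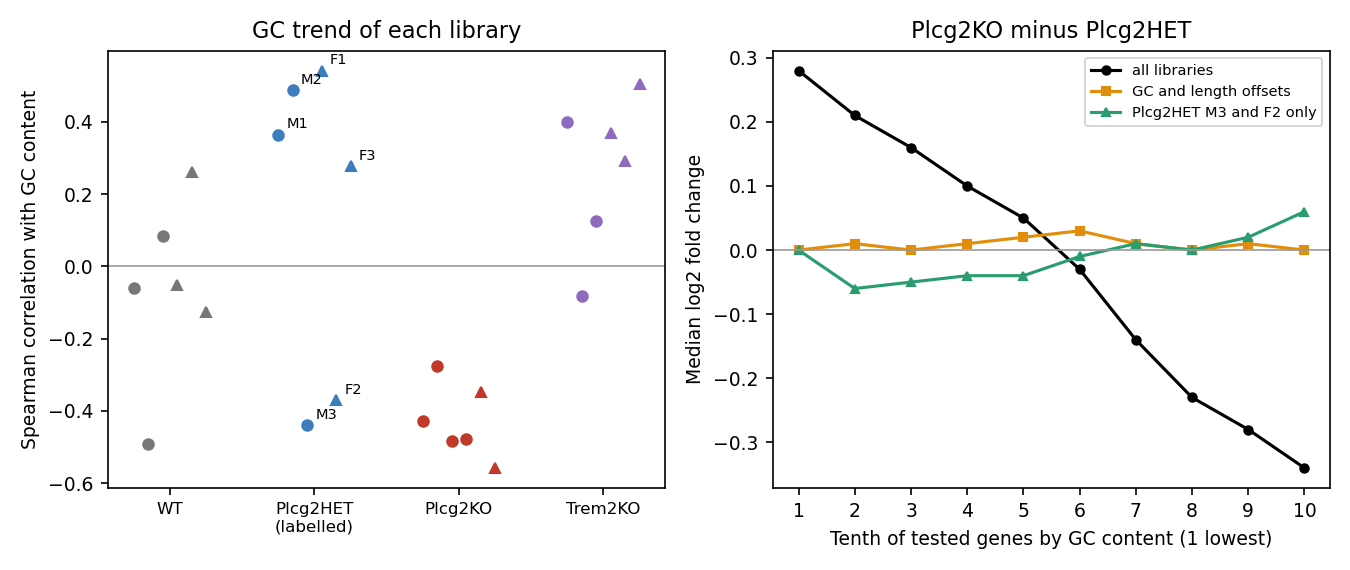
Left, the Spearman correlation between GC content and a library's deviations, by genotype; right, the median log2 fold change (Plcg2KO minus Plcg2HET) in 10 equal bins of genes ordered by GC content, in 3 fits. With all libraries the medians run from 0.28 in the bin with the lowest GC content to -0.34 in the highest, and in the other fits they stay between -0.06 and 0.06.

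Of 16316 genes tested, 5746 differed between Plcg2KO and Plcg2HET at an adjusted p under 0.05 (35.2%). Of these, 3301 were lower in Plcg2KO (20.2%) and 2445 higher (15%), and the median log2 fold change of all genes was 0. These 2 shares are the background for counts of list members with all libraries below. A list share near them is no more than background. For counts with offsets or in the GC-matched fit, the shares of those fits, given in this paragraph, are the background. Changes over 2-fold were fewer: 418 genes fell and 102 rose by that much. In 724 genes (4.44%) every Plcg2KO library lay below every Plcg2HET library, and in 795 (4.87%) every one lay above. With GC and length offsets 16.5% were called lower and 16.5% higher, and 3728 of the calls were shared with the first fit in the same direction. In the GC-matched fit 9.95% were called lower and 7.62% higher, and 1274 calls were shared; that fit has 2 Plcg2HET mice and less power. In the same model with WT, 18% of genes differed between Plcg2HET and WT and 13.1% between Plcg2KO and WT, in either direction. Shares by direction against WT are not given, so counts of list members above WT have only the 18% as background. Values against WT are given below for some genes only, and these contrasts share libraries. A gene lower in Plcg2KO than in Plcg2HET is not by that alone lower than in WT. The p-values set each difference against a spread between mice that is estimated over all 4 genotypes. With all libraries they do not take out the GC trend.

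Among genes with an average log2 CPM of 1 or more, the 12 largest decreases were led by genes of plaque-associated microglia. Itgax, the CD11c integrin chain, was at 0.232 (M1) to 1.83 CPM (F2) in Plcg2KO, median 0.796, and at 17.6 (M3) to 42.2 CPM (F1) in Plcg2HET, median 30.6. Every Plcg2KO library had less than every Plcg2HET library, and the log2 fold change was -4.85 ± 0.22 (SE, adjusted p = 3.03e-14). Cst7, which encodes the cysteine protease inhibitor cystatin F, had 0.82 to 5.59 CPM in Plcg2KO and 34.7 to 90.5 CPM in Plcg2HET, a log2 fold change of -4.25 ± 0.26. Clec7a, the beta-glucan receptor Dectin-1, had 1.12 to 6.60 CPM against 23.5 to 50.8 CPM and fell by 3.23 ± 0.27 on the log2 scale. For all 3 genes M1 was the lowest Plcg2KO library and F2 the highest.

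The rest of these decreases, after Plcg2 itself, were Ccl3 (-2.82), a chemokine for monocytes and lymphocytes; St14 (-2.75), the membrane protease matriptase; the chemokine gene Ccl6 (-2.63); Lilrb4a (-2.60), an inhibitory receptor; Gpr84 (-2.56), a receptor for medium-chain fatty acids; the actin-capping gene Capg (-2.46); Slc15a3 (-2.44), a lysosomal peptide and histidine transporter; and Cd74 (-2.33), the invariant chain of MHC class II. In all of them the 2 groups of libraries were separate. The call held in all 27 alternative fits for each of the 12. Under the GC-matched fit Itgax was at -4.69, Cst7 at -3.85, Clec7a at -2.92 and Gpr84 at -1.51, so Gpr84 was the member whose value shrank by more than 1.5 times. Ccl6, Slc15a3 and Cd74 overlap other annotated genes, whose reads may be counted with them.

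To place these against microglial genes at large, the mean log2 CPM of 19 pan-microglial genes was taken in each library. It was 3.70 to 4.44 in Plcg2KO and 4.78 to 5.52 in Plcg2HET, with no overlap, and 4.55 to 5.42 in WT. Less RNA per cell and fewer cells of a type cannot be told apart in bulk cortex. After this mean was subtracted from log2(CPM + 0.5) in each library, Itgax still differed by -3.31, Cst7 by -3.16, Clec7a by -2.18 and Plcg2 by -1.85. These are differences of group means and not fitted values, and the added 0.5 shrinks differences at low CPM. Before the subtraction, Plcg2 differed by -2.98 on this scale, against -3.50 in the fit. Trem2 differed by -1.08 on that scale. Plcb2 (0.22) and Nlrp3 (0.27) were on the other side of 0. Nlrp3, at a mean of 1.05 CPM in Plcg2KO, is among the low genes that the added 0.5 moves. Relative to the pan-microglial mean, all Plcg2KO libraries stayed below all Plcg2HET libraries for 11 of the 12 largest decreases, the exception being Gpr84, and for Trem2. The 12 were chosen for the size of their decrease in these same libraries, which favours that outcome, so it is a description and not a test. List members named below were likewise chosen in these libraries.

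**Figure D3:**
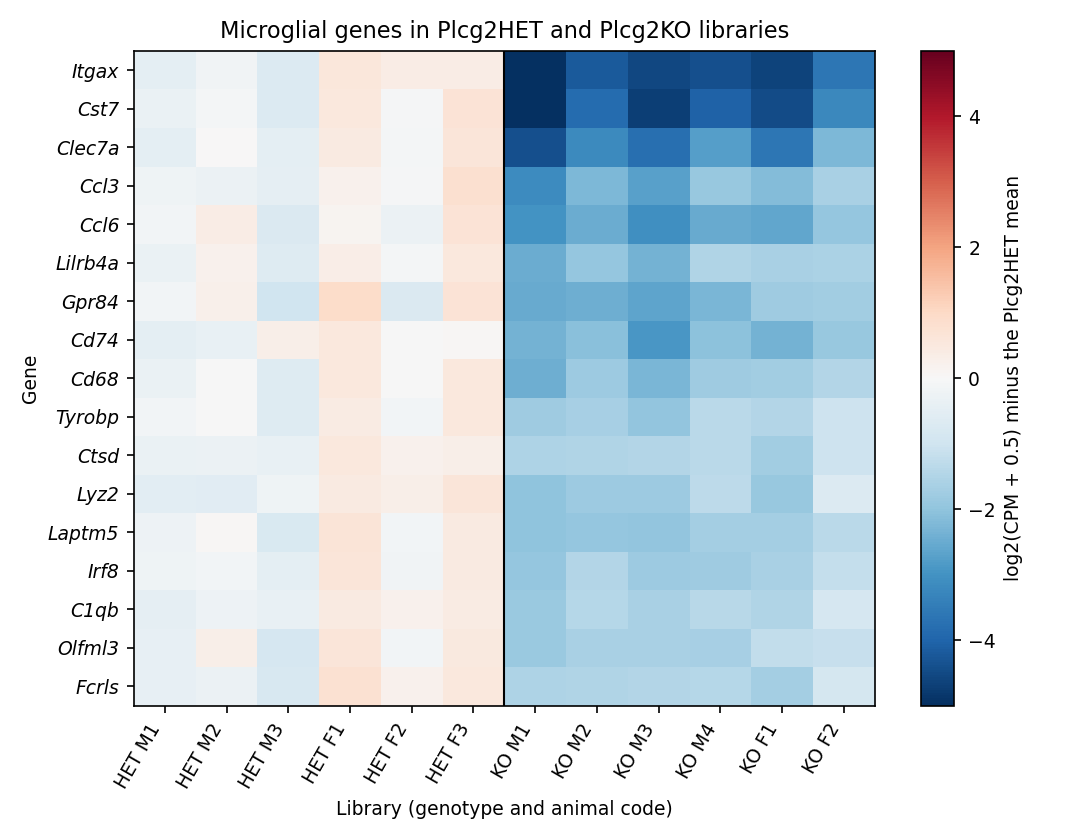
Each cell is the log2(CPM + 0.5) of a microglial gene in 1 library minus the mean of the 6 Plcg2HET libraries (blue lower, red higher). Itgax, Cst7 and Clec7a are the darkest rows in all 6 Plcg2KO libraries, and Plcg2KO F2 is the palest Plcg2KO column.

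Among the 19 pan-microglial genes, 19 were lower in Plcg2KO and 0 higher, with a median log2 fold change of -1.07. Laptm5, a lysosomal membrane protein of leukocytes, had 49.5 to 78.8 CPM in Plcg2KO and 117 to 319 CPM in Plcg2HET and fell by 1.74 ± 0.14. Hcls1 (-1.64), an actin regulator of blood cells, and C1qb (-1.33), a chain of the complement initiator C1q, were also separate between the groups. The lineage factors Spi1 (-1.40) and Irf8 (-1.58) and the colony-stimulating factor receptor Csf1r (-1.12) were called too; Spi1 and Csf1r were chosen after their values were seen, as were other members below outside the rule stated in the methods. Plcg2KO F2 was the highest Plcg2KO library for 18 of these 19 genes. Against WT, Laptm5 was at 0.63 in Plcg2HET and -1.11 in Plcg2KO, and Csf1r at 0.52 and -0.60. Plcg2HET was called above WT for 3 of the 19 genes and below it for 0, against 18% of all tested genes in either direction. The GC-matched fit called 17 of 19 lower, and Cyba, a subunit of the phagocyte NADPH oxidase, lost its call there (-0.50, adjusted p = 0.113).

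Of 19 homeostatic genes, 15 were lower and 0 higher, with a median of -0.50 (10 lower in the GC-matched fit). Olfml3, a secreted microglial protein, had 23.2 to 38.1 CPM in Plcg2KO and 47.2 to 130 CPM in Plcg2HET and fell by 1.5 ± 0.15 (GC-matched -0.95). Fcrls, an Fc receptor-like scavenger gene, fell by 1.29 and Tmem119, a microglial membrane protein, by 0.87. Cx3cr1, the fractalkine receptor, fell by 0.60, and its groups overlapped. P2ry12, the ADP receptor that guides microglial processes, was at 33.9 to 54.5 CPM in Plcg2KO and 29.4 to 43.4 CPM in Plcg2HET, with a log2 difference of 0.29 ± 0.12 that was not called (adjusted p = 0.0511). The called members are thus led by Olfml3, and P2ry12 lies at the other end of the list.

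The DAM lists were split by stage. Of 7 stage 1 genes, 6 were lower and 0 higher (median -0.66): Tyrobp, the adaptor of TREM2 (-1.47 ± 0.16), Lyz2, lysozyme (-1.42 ± 0.16), and Ctsd, the protease cathepsin D (-1.33 ± 0.12), had groups that did not overlap. Apoe, the lipid carrier that astrocytes also make, fell by 0.54 ± 0.15, from a Plcg2HET median of 3420 CPM to a Plcg2KO median of 2220 CPM, with overlapping groups. Fth1, ferritin heavy chain, had a difference of 0.05 ± 0.17 that was not called. Of 20 stage 2 genes, 13 were lower and 2 higher (median -0.83). Beside those above, Cd68, a phagosome glycoprotein, had 13.7 to 27.6 CPM in Plcg2KO and 49.0 to 111 CPM in Plcg2HET (-1.84 ± 0.13). Gpnmb, a glycoprotein of lipid-laden phagocytes, fell by 2.07 and Spp1, osteopontin, by 1.09. Lpl (-0.07) and Igf1 (-0.25) were not called. Lpl, lipoprotein lipase, had 30.5 to 43.7 CPM in Plcg2KO and 26.9 to 50.6 CPM in Plcg2HET, and both groups lay below the 53.5 to 82.2 CPM of WT, with log2 differences of -0.84 and -0.77. The 2 members higher in Plcg2KO, Timp2 (0.19) and Cadm1 (0.43), lost their calls in the GC-matched fit, which left 12 lower and 0 higher.

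In the ITAM pathway, 26 of 29 tested genes were lower in Plcg2KO and 0 were higher, with a median of -0.92; 22 stayed lower in the GC-matched fit and 23 with offsets. The steepest drop was that of Fgr, a Src-family kinase that phosphorylates ITAMs, at 0.0178 to 0.203 CPM in Plcg2KO and 0.845 to 3.00 CPM in Plcg2HET (-3.39 ± 0.35). Lyn, of the same family, fell by 0.43, with overlapping groups. Ptpn6, the phosphatase SHP-1 that opposes ITAM signals, had 3.31 to 7.49 CPM against 13.7 to 35.2 CPM (-1.87 ± 0.16), with separate groups. Fcer1g, the ITAM chain shared by Fc receptors, fell by 1.70 ± 0.16. Syk, the kinase that binds phosphorylated ITAMs directly upstream of the phospholipase, fell by 0.92 ± 0.15 with overlapping groups, and Btk by 0.71. In Syk the Plcg2HET libraries lay above WT (0.58, adjusted p = 0.00652) and the Plcg2KO difference from WT, -0.34, was not called. The 3 genes not called were Hcst (-0.88), Grap (-0.36) and Gab2 (-0.04). Of 8 Fc receptor genes, 7 were lower (median -1.25), among them the inhibitory receptor Fcgr2b (-1.22 ± 0.12) and the activating Fcgr4 (-1.49) and Fcgr1 (-1.33).

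Among 14 phospholipase C genes, 6 were lower, Plcg2 included, and 2 higher, with a median of -0.22. Plcb2, a G protein-coupled isoform of blood cells, had 3.23 to 4.58 CPM in Plcg2KO and 6.05 to 11.0 CPM in Plcg2HET (-0.98 ± 0.14; GC-matched -0.57). Plcg1, the gene for the broadly expressed sister enzyme, fell by 0.22 ± 0.08 (adjusted p = 0.0345). The 2 increases were Plcb1 (0.47) and Plcb4 (0.65). The GC-matched fit called 3 lower and 0 higher, and neither these increases nor Plcg1 were among its calls. Of 30 genes for the steps after the phospholipase, 13 were lower and 5 higher (median -0.24; GC-matched 6 and 1). Prkcd, a diacylglycerol-dependent protein kinase C, fell by 0.75 ± 0.12 (GC-matched -0.45). Ppp3ca, the calcineurin catalytic subunit that is abundant in neurons, rose by 0.65 ± 0.10, from 772 to 1040 CPM in Plcg2HET to 1450 to 1680 CPM in Plcg2KO (0.42 with offsets). Nfatc1, a calcineurin-dependent transcription factor, fell by 0.60 but lost its call in the GC-matched fit (-0.38, adjusted p = 0.0556). Against WT, Nfatc1 was at 0.50 in Plcg2HET and -0.10 in Plcg2KO, and Prkcd at 0.43 and -0.32. Plcg2HET was called above WT for 8 of these 30 genes and below it for 3, against 18% of all tested genes in either direction.

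Genes of antigen presentation were lower in both classes. Of 10 MHC class II genes, 9 were lower and 0 higher, with a median of -1.32, and 6 stayed so in the GC-matched fit. Cd74 had 3.52 to 7.63 CPM in Plcg2KO and 21.3 to 43.5 CPM in Plcg2HET, and H2-Ab1, a class II beta chain, 1.29 to 3.27 CPM against 6.46 to 15.0 CPM (-2.03 ± 0.25). Ciita, the class II transactivator, was at -1.14 and was not called. Of 14 class I genes, 8 were lower and 0 higher (median -0.56), with the immunoproteasome subunit Psmb8 at -1.14 ± 0.18 (GC-matched -0.61). B2m was at -0.66 ± 0.10 and the peptide-loading gene Tapbp at -0.65 ± 0.10, and with offsets they were at -1.03 and -0.31. Reads of MHC genes can be shared between near-identical copies, so single members of this family are uncertain. Border-associated macrophages also carry class II; of 12 of their genes 0 were lower and 2 higher, Mrc1 (0.73 ± 0.19) and Clec4n (0.90 ± 0.30), and neither was called in the GC-matched fit (0.51 and 0.98). Offsets moved Mrc1 to 0.40 and ended the call of Clec4n (0.72).

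Of 31 interferon-stimulated genes, 22 were lower and 2 higher, with a median of -0.84 (15 lower and 2 higher in the GC-matched fit). Oas1a, an RNA-sensing synthetase, fell by 1.97 ± 0.28, Oasl2 by 1.5 ± 0.22 and Irf9, a subunit of the interferon-activated factor ISGF3, by 1.09 ± 0.14. Irf7 (-1.19) and Isg15 (-1.02) were called as well. Gbp4, an interferon-induced GTPase, went the other way and led the increases among genes with an average log2 CPM of 1 or more, at 1.37 to 6.09 CPM in Plcg2KO and 0.779 to 1.35 CPM in Plcg2HET (1.65 ± 0.24). Its groups were separate, but Plcg2HET lay below WT (-1.22) and the Plcg2KO minus WT difference, 0.43, was not called. Gbp genes are a multigene family with close copies, so the value is uncertain.

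Of 19 complement genes, 10 were lower and 1 higher (median -0.48). Itgb2, the shared chain of the complement receptors CR3 and CR4, had 7.31 to 14.4 CPM in Plcg2KO and 18.9 to 33.7 CPM in Plcg2HET (-1.27 ± 0.09), and C3ar1, the C3a receptor, fell by 1.47 ± 0.12. C4b fell by 1.55 ± 0.29 with overlapping groups; it was above WT in Plcg2HET (0.92) and its Plcg2KO minus WT difference of -0.63 was not called. Of 15 chemokine genes, 8 were lower and 0 higher, and Cxcl16, a scavenger-type chemokine, fell by 1.32 ± 0.19 (GC-matched -0.69). Of 27 Toll-like receptor and inflammasome genes, 15 were lower and 1 higher (median -0.51; GC-matched 9 and 0). The lipopolysaccharide co-receptor Cd14 (-2.02 ± 0.21) and Tlr2 (-1.99 ± 0.20) had separate groups and stayed below after the pan-microglial mean was subtracted, and Nlrp3, the inflammasome sensor, fell by 1.05 ± 0.19. Il1b, at 0.02, was not called. Of 14 inhibitory myeloid receptors 8 were lower, with Siglecf, a sialic acid receptor, at -2.05 ± 0.26 and 4632428N05Rik, the gene of the checkpoint receptor VISTA, at -1.10 ± 0.11. Cd33 (-0.28) was not called. Of 5 MS4A genes tested, 0 were lower and 1 higher, Ms4a6b (0.41 ± 0.16, adjusted p = 0.0487), which lost its call in 18 of 27 alternatives, offsets among them (0.13), and was at 0.70 in the GC-matched fit.

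Lysosomal genes were lower in 20 of 28 cases (71.4%, against 20.2% of all tested genes) and higher in 0, with a median of -0.68. In 17 of the 28 every Plcg2KO library lay below every Plcg2HET library, which held for 4.44% of all tested genes. The GC-matched fit called 17 lower. Grn, progranulin, had 59.2 to 81.1 CPM in Plcg2KO and 118 to 218 CPM in Plcg2HET (-1.18 ± 0.11), and Ctsd 396 to 654 CPM against 1020 to 1910 CPM. Against WT, Grn was at 0.51 in Plcg2HET and -0.67 in Plcg2KO. Plcg2HET was called above WT for 6 of the 28 genes and below it for 0, against 18% of all tested genes in either direction. Atp6v0d2, a proton pump subunit of osteoclasts and macrophages, had the lowest value, at 0 to 0.0535 CPM in Plcg2KO and 0.325 to 1.39 CPM in Plcg2HET (-4.61 ± 0.51); its counts are few. The 8 members not called lay between -0.11 and 0.09 and included Lamp1 (-0.07), Lamp2 (0.09) and Psap (-0.01), lysosomal proteins that most cell types make.

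**Figure D4:**
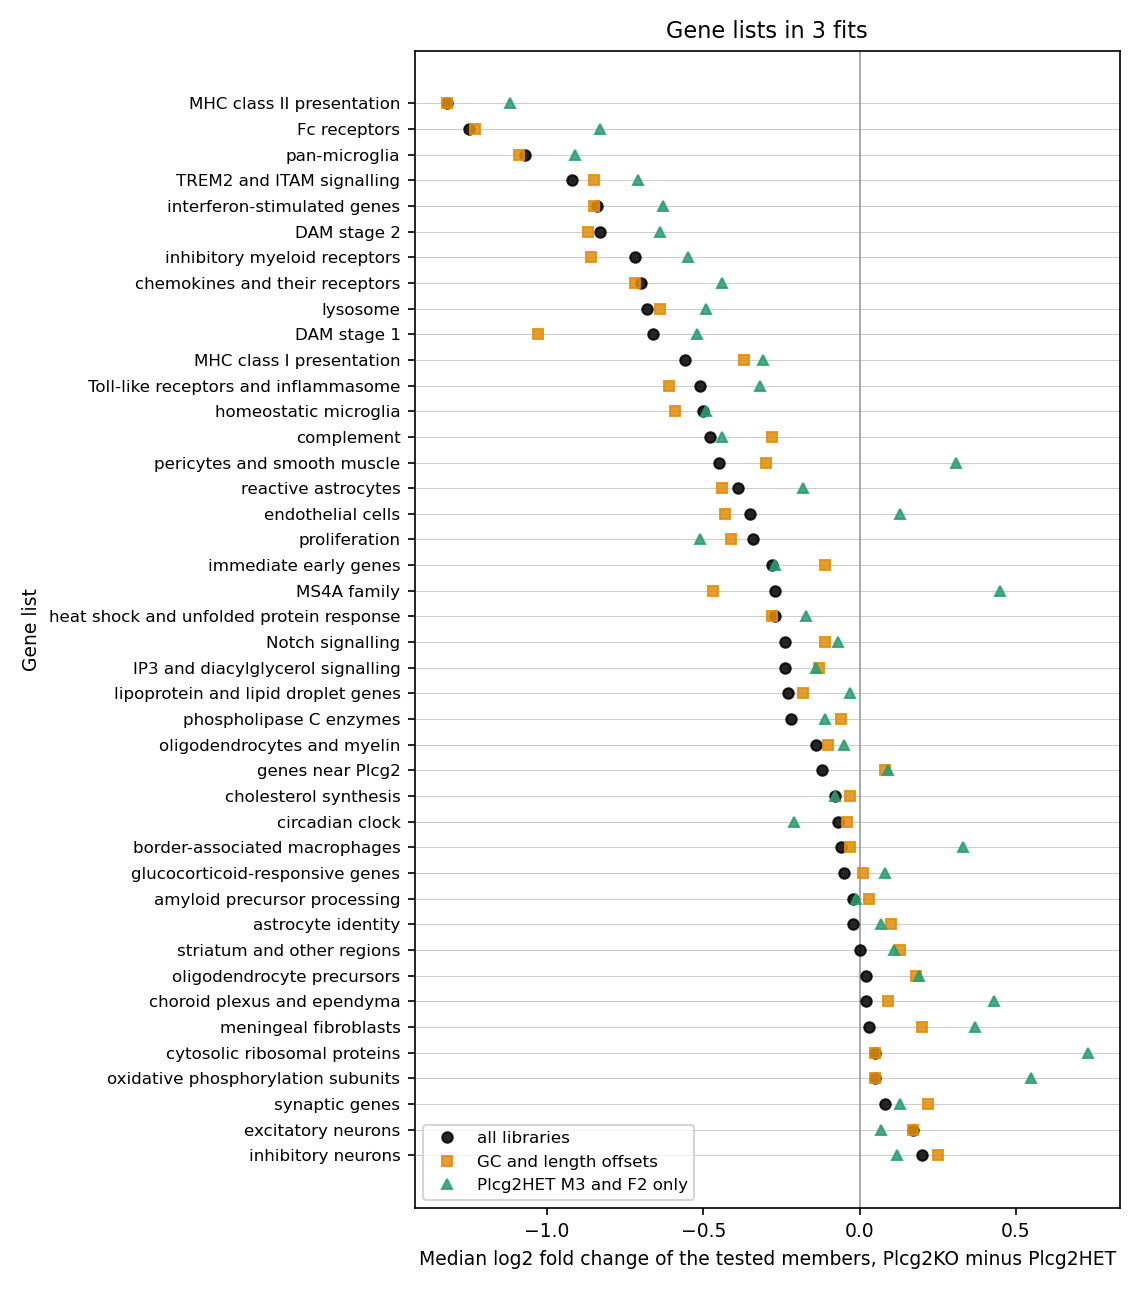
Median log2 fold change (Plcg2KO minus Plcg2HET) of the tested members of each gene list, with all libraries (black circles), with GC and length offsets (orange squares) and in the GC-matched fit (green triangles). The pan-microglial, homeostatic, DAM, ITAM, MHC, interferon and lysosomal lists lie left of 0 in all 3 fits. The MS4A median is -0.27 with all libraries, -0.47 with offsets and 0.45 in the GC-matched fit. The endothelial and pericyte medians are -0.35 and -0.45 with all libraries and -0.43 and -0.3 with offsets. In the GC-matched fit they are 0.13 and 0.31.

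Astrocyte genes split by role. Of 23 genes of reactive astrocytes, 14 were lower and 1 higher (median -0.39), and in the GC-matched fit 6 were lower and 2 higher. Gfap, the intermediate filament of reactive astrocytes, had 301 (M1) to 1110 CPM (F2) in Plcg2KO, median 526, and 1030 (M3) to 3780 CPM (F1) in Plcg2HET, median 1810. Plcg2KO F2 overlapped Plcg2HET M3, and the log2 fold change was -1.71 ± 0.23 (adjusted p = 5.54e-06); in the GC-matched fit it was -1.0. Serpina3n, a secreted protease inhibitor, fell by 1.5 ± 0.22 (GC-matched -0.95), and Cd44, the hyaluronan receptor, by 0.73 ± 0.11. Against WT, Gfap was at 0.63 in Plcg2HET and -1.08 in Plcg2KO. The higher member was Lcn2, lipocalin 2, at 0.238 to 2.30 CPM in Plcg2KO against 0.159 to 0.494 CPM. Of 17 astrocyte identity genes 3 were lower (17.6%) and 4 higher (23.5%), against 20.2% and 15% of all tested genes, with a median of -0.02. Etnppl, an astrocyte enzyme of phosphoethanolamine breakdown, had 41.4 to 67.0 CPM in Plcg2KO and 15.7 to 35.1 CPM in Plcg2HET (1.26 ± 0.17; GC-matched 0.83), with separate groups. Slc1a3, a glutamate transporter, rose by 0.58 ± 0.09 (GC-matched 0.34).

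The 12 largest increases, after Gbp4, were led by Trip11, Etnppl and Erbb4. Trip11, a Golgi tether, had 16.4 to 20.2 CPM in Plcg2KO and 4.16 to 9.12 CPM in Plcg2HET, with WT at 5.78 to 9.31 CPM, and rose by 1.36 ± 0.15 (adjusted p = 2.08e-07). Erbb4, the neuregulin receptor of inhibitory neurons, had 13.0 to 15.6 CPM against 3.81 to 8.01 CPM (1.22 ± 0.16), with WT at 4.21 to 7.11 CPM. In both genes every Plcg2KO library lay above every Plcg2HET and WT library. The others were the adhesion gene Ncam2 (1.18), the synaptotagmin Syt10 (1.17), the potassium channel gene Kcnh7 (1.17), the glycine receptor gene Glra3 (1.15), Mettl20 (1.15), a mitochondrial methyltransferase, the integrin gene Itgb8 (1.14), the ferroxidase Heph (1.11) and the centromere gene Cenpq (1.10). All 12 kept their call in the 27 alternatives. In the GC-matched fit Trip11 was at 0.93, Erbb4 at 0.76, Ncam2 at 0.78, Glra3 at 0.75, Itgb8 at 0.73, Heph at 0.74 and Mettl20 at 1.06, and with offsets Trip11, Erbb4, Ncam2 and Mettl20 were at 1.16, 1.09, 0.81 and 1.18. Mettl20 was lower in Plcg2HET than in WT (-0.87), and its Plcg2KO minus WT difference of 0.28 was not called.

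Of 15 inhibitory neuron genes 0 were lower and 5 higher (median 0.20; GC-matched 3 higher), with the neuropeptide gene Vip at 0.73 ± 0.10 (0.46 with offsets, 0.48 GC-matched). Of 15 excitatory neuron genes 1 was lower, the vesicular glutamate transporter Slc17a7 (-0.53 ± 0.12), and 5 were higher, Slc17a6 among them (0.75 ± 0.13); neither of these transporters was called in the GC-matched fit (-0.10 and 0.43), and Slc17a7 was at -0.22 with offsets. Of 17 synaptic genes 4 were lower and 5 higher. Grin2b, an NMDA receptor subunit, fell by 1.64 ± 0.23 from 64.8 to 277 CPM to 43.3 to 52.1 CPM, and was at -0.59 in the GC-matched fit, that is, without Plcg2HET M1, M2, F1 and F3. Gria2, an AMPA receptor subunit, rose by 0.56 ± 0.10 (0.22 with offsets). Of 18 amyloid precursor processing genes 4 were lower (22.2%) and 3 higher (16.7%), with a median of -0.02. Over all tested genes the shares were 20.2% and 15%. App rose by 0.30 ± 0.10 and Aplp1 fell by 0.67 ± 0.16; the GC-matched fit did not call Aplp1 (0.06), and with offsets it was at -0.24. Whether reads of the human transgenes are counted with App was not tested.

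Of 19 oligodendrocyte genes 7 were lower and 2 higher (median -0.14; GC-matched 2 and 2). Klk6, a secreted protease of oligodendrocytes, had 2.46 to 4.72 CPM in Plcg2KO and 6.78 to 17.0 CPM in Plcg2HET (-1.43 ± 0.19), with separate groups. Mal, a myelin proteolipid, rose by 0.71 ± 0.08 and was also separate. Sox10, the lineage factor, fell by 1.06 ± 0.18 but was at -0.60 with offsets and at -0.16 (adjusted p = 0.449) in the GC-matched fit. Against WT, Sox10 was at 0.91 in Plcg2HET and -0.15 in Plcg2KO. Among 10 precursor genes 3 were lower and 4 higher; Lhfpl3 (0.72 ± 0.09) and Ptprz1 (0.67 ± 0.12) stayed higher in the GC-matched fit (0.59 and 0.35), and Pdgfra (0.47 ± 0.11) did not (0.11). With offsets Lhfpl3 was at 0.42 and Ptprz1 at 0.30.

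Vascular genes changed with the libraries used. Of 18 endothelial genes 9 were lower and 0 higher (median -0.35), and with offsets 8 and 0 (median -0.43). In the GC-matched fit 0 were called. Cldn5, a tight junction protein, had 9.13 to 16.1 CPM in Plcg2KO and 12.8 (F2) to 31.5 CPM (F1) in Plcg2HET (-0.90 ± 0.19), and was at -0.06 (adjusted p = 0.869) in that fit and at -0.49 with offsets. Of 12 pericyte and smooth muscle genes 4 were lower, Notch3 first (-1.04 ± 0.20), against 0 lower and 1 higher in the GC-matched fit, where neither Pdgfrb (0.14) nor Vtn (0.38) was called, against -0.52 and -0.65 with all libraries. Offsets left 3 of the 12 lower and 0 higher, moved Pdgfrb to -0.34 and ended the call of Vtn (-0.32). Of 16 Notch pathway genes 6 were lower and 1 higher, and with offsets 6 and 3. In the GC-matched fit 1 was lower. Notch3 (-0.11), Notch4 (-0.13) and Hes5 (-0.23) were not called there, against -1.04, -0.92 and -0.77 with all libraries. With offsets Notch4 was at -0.61 and Hes5 at -0.41. Of 15 meningeal fibroblast genes 2 were lower and 4 higher, and 0 and 7 in the GC-matched fit, with Col3a1 called in both (0.70 and 1.21).

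Stress and hormone genes were set against WT as well. Plin4, a lipid droplet coat gene that glucocorticoids raise, had 3.58 (M4) to 16.4 CPM (M3) in Plcg2KO, 11.8 (M3) to 39.4 CPM (F1) in Plcg2HET and 1.66 to 3.98 CPM in WT. It was lower in Plcg2KO than in Plcg2HET, at -1.47 ± 0.33 (adjusted p = 0.0016) and above WT in both, by 1.53 in Plcg2KO and 3.00 in Plcg2HET. The difference within the line lost its call in males alone (-1.19, adjusted p = 0.0538) and in the GC-matched fit (-0.74, adjusted p = 0.342). Of 21 glucocorticoid-responsive genes, 2 were lower, Plin4 and Hif3a (-0.70 ± 0.19), and 1 was higher, Pdk4 (0.43 ± 0.12), with a median of -0.05. Against WT 14 of the 21 were higher in Plcg2HET, where 18% of all tested genes differed from WT in either direction. The list's median against WT was 0.60 in Plcg2HET and 0.45 in Plcg2KO. Fkbp5 and Sgk1, classical glucocorticoid targets, were at 0.67 and 1.10 against WT in Plcg2HET and at 0.45 and 0.95 in Plcg2KO, and neither was called between the 2 groups. The hour of tissue collection is not given in the labels. Of 17 clock genes 3 were lower (17.6%, against 20.2% of all tested genes) and 0 higher. The 3 were Cry2 (-0.49 ± 0.09), Dbp (-0.50 ± 0.15) and Per3 (-0.33 ± 0.11). In Plcg2HET 6 of the 17 were above WT, against the same 18% in either direction. With offsets Hif3a (-0.45, adjusted p = 0.0627) and Dbp (-0.12) lost their calls. The GC-matched fit called none of Hif3a (-0.34, adjusted p = 0.332), Pdk4 (0.35, adjusted p = 0.114), Cry2 (-0.31, adjusted p = 0.0541) and Dbp (0.17). Per3 was at -0.58 there and lost its call in 8 of 27 alternatives, Hif3a and Pdk4 in 4 each, Dbp in 7. Of 19 lipid genes 8 were lower and 2 higher, and of 16 cholesterol synthesis genes 5 and 4; in the GC-matched fit the latter became 0 and 0.

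Of 29 heat shock and unfolded protein genes 16 were lower in Plcg2KO and 0 higher, with a median of -0.27 (GC-matched 6 lower and 1 higher). Against WT 12 were higher in Plcg2HET, with a median of 0.28, while the Plcg2KO median was 0. Of all tested genes 18% differed between Plcg2HET and WT, in either direction. Hspa1b, an inducible Hsp70 gene with a near-identical copy in Hspa1a, had 5.13 to 8.01 CPM in Plcg2KO, 7.2 (M3) to 27.9 CPM (M1) in Plcg2HET and 4.98 to 8.77 CPM in WT (-1.06 ± 0.20 within the line; GC-matched -0.62). Bag3, an Hsp70 co-chaperone, had 9.28 to 13.7 CPM, 12.0 to 24.1 CPM and 10.6 to 13.0 CPM in these groups (-0.85 ± 0.13; -0.54 with offsets, -0.36 GC-matched), and Pdia4, a disulfide isomerase of the endoplasmic reticulum, fell by 0.55 ± 0.09. Against WT, Hspa1b, Bag3 and Pdia4 were called higher in Plcg2HET (0.98, 0.77 and 0.56), and none of these 3 was called in Plcg2KO. The promoters of Hspa1b (chr17:34959189-34959488, minus strand) and Bag3 (chr7:128523333-128523632, plus strand) are shown with the core of the heat shock element (GAANNTTC, which reads the same on both strands) in capitals, because both genes are known heat shock targets and were called lower.
Hspa1b: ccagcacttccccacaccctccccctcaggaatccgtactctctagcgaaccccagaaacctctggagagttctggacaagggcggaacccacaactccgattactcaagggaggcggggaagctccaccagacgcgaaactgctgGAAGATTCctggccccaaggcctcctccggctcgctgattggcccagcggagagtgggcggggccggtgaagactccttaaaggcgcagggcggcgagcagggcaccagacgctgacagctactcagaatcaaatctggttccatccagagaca
Bag3: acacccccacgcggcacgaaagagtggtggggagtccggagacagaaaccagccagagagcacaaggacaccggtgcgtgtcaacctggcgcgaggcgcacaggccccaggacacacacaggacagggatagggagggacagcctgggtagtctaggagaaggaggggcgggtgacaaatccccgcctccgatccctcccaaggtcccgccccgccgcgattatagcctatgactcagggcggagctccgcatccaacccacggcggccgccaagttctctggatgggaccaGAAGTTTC
Each window held 1 match, and 5.9% of the 12162 promoters held at least 1. The Bag3 match is at the very end of its window, after the RefSeq start. Of 17 immediate early genes, which neurons switch on with activity, 4 were lower and 0 higher (Npas4, -0.85 ± 0.23; Arc, -0.71 ± 0.20; Ier2, -0.71 ± 0.19; Fosb, -0.42 ± 0.16). With offsets 0 of 17 were called, and 0 in the GC-matched fit. Npas4, Arc and Ier2 were at -0.57, -0.38 and -0.34 with offsets, and at -0.75, -0.62 and -0.39 in the GC-matched fit. Against WT 10 of 17 were higher in Plcg2HET, Arc by 1.13, where 18% of all tested genes differed from WT in either direction.

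**Figure D5:**
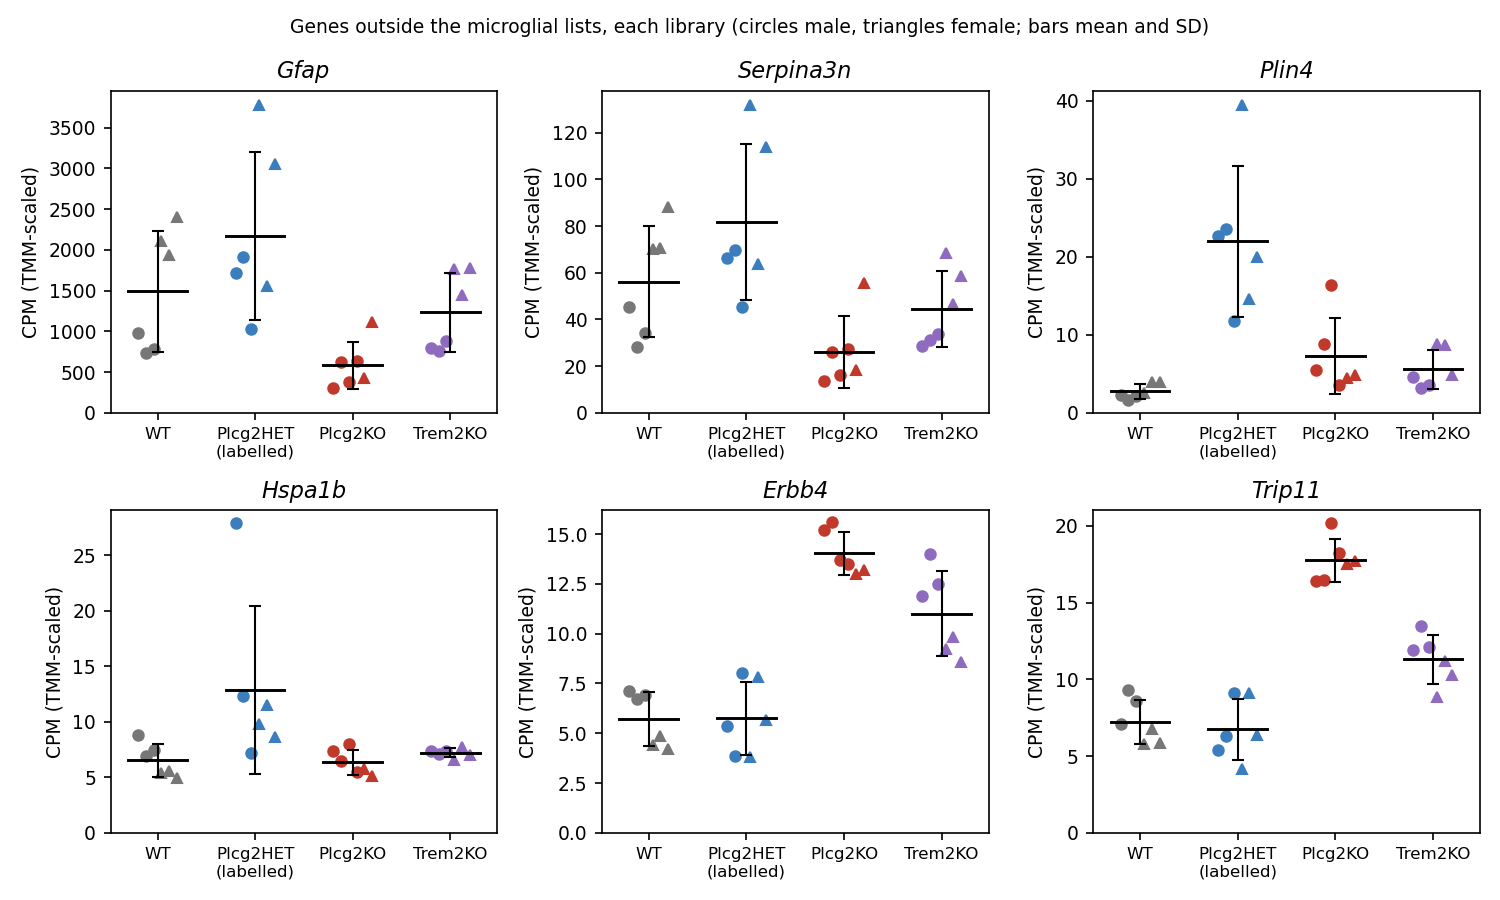
CPM (linear axis) of 6 genes in each library of the 4 genotypes, circles male and triangles female, with bars for the mean and SD. Trip11 and Erbb4 are higher in all Plcg2KO libraries than in all Plcg2HET and WT libraries, whereas for Plin4 and Hspa1b the highest of these libraries are Plcg2HET ones, at 39.4 and 27.9 CPM, and Plcg2HET and Plcg2KO overlap.

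Housekeeping genes gave other counts in other fits. Of 82 oxidative phosphorylation subunits 12 were lower and 8 higher (median 0.05), and of 78 cytosolic ribosomal protein genes 2 and 5 (median 0.05). In the GC-matched fit, which is not matched for gene length, 43 and 53 were higher and 0 lower, with medians of 0.55 and 0.73. Without the Rn45s-rich libraries 2 oxidative phosphorylation genes were lower and 6 higher, and 0 and 2 ribosomal protein genes. With offsets these counts were 15 and 11, and 9 and 13. Rpl12, for example, had 68.9 CPM in Plcg2HET M3, the lowest of that group, against 177 to 223 CPM in Plcg2KO, and its log2 fold change was 0.57 with all libraries and 1.55 in the GC-matched fit. Of markers of cells that a cortical dissection could also hold, choroid plexus and ependyma had 0 lower and 1 higher of 8, striatum and other regions 0 and 2 of 10, lymphocytes and neutrophils 1 and 1 of 8, and the 1 blood gene tested was not called. S100a9, a neutrophil gene, was at 0.0715 to 0.720 CPM in Plcg2KO and 0 to 0.193 CPM in Plcg2HET. The log2 fold change of 2.31 lost its call in the GC-matched fit, where it was 2.27. The transthyretin gene Ttr, abundant in choroid plexus, ran from 0.243 to 5.68 CPM in Plcg2KO and 0.346 to 2.66 CPM in Plcg2HET. The part of these cells in the results was not tested. Of 8 proliferation genes 1 was lower, the mitotic kinase Cdk1 (-1.58 ± 0.29).

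Genes near the targeted locus formed a list of their own. Of 72 tested genes within 5 Mb of the start of Plcg2 on chromosome 8, 16 were lower (22.2%) and 7 higher (9.72%), with a median of -0.12. Over all tested genes the shares were 20.2% and 15%, so the count near the locus was no larger than the background in total. Irf8 and Cyba, both microglial genes, had the smallest p of these, followed by Banp, a nuclear matrix protein (-0.63 ± 0.12), which was above WT in Plcg2HET (0.66) and lost its call in the GC-matched fit (-0.42, adjusted p = 0.0666). That fit called 4 lower and 2 higher, and the fit with offsets 8 and 16.

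The difference between Plcg2KO and Plcg2HET was also compared between the sexes. The interaction of genotype and sex was called for 0 of 16316 genes (0%) with edgeR, and 534 had an unadjusted p under 0.05. It rests on 2 female Plcg2KO mice. As examples, for Itgax the log2 fold change was -4.91 in females and -4.82 in males, and for Plcg2 -3.69 and -3.39.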

How the data were processed

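RNA from the cortex of 24 mice was sequenced, 1 library per mouse. The authors deposited whole-number read counts for 24421 genes, with exon coordinates, per the file headers. Per the submitters' processing notes, STAR 2.7.10a, featureCounts 2.0.3 and the build mm10 were used. The strand setting was not given in the sources used here. A second table deposited by the authors held expected counts, TPM, FPKM and effective lengths, per the file headers. Its expected counts, rounded, entered 1 alternative fit, and its TPM and FPKM entered none. Every sample column of the deposited tables belonged to the 24 samples, and 0 were left unused as columns of other samples.

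Genes were filtered with filterByExpr (minimum count 10, by genotype), scaled by TMM and fitted with edgeR 4.0.16 in R 4.3.3 (robust quasi-likelihood, all 24 libraries, 1 mean per genotype, a term for sex), so the genotypes share 1 dispersion estimate. Adjusted p-values are Benjamini-Hochberg over all tested genes, with 0.05 as the threshold, and each ± after a log2 fold change is its SE. All adjusted p-values in the text are from this test unless another fit is named. The 12 libraries compared held 36272966 to 81487044 counts. GC content was known for 15567 genes (95.4%), from the GENCODE annotation of GRCm38. Promoters are from RefSeq (GRCm38.p6), with 98 of 128 named genes matched. The fit was tested on simulated counts.

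The genes named are Plcg2, Trem2, the 12 largest changes each way among called genes whose mean log2 CPM was 1 or more and whose symbol is not that of a predicted gene, and up to 3 called members of each list with the smallest p; others were chosen after their values were seen. A few genes are not reported here. The members of the 44 lists and these rules were chosen with earlier results of these data known. Of 924 list genes, 875 were tested. Of the named genes, 20 overlap another gene, whose reads may be counted with theirs. Alternatives were RLE factors, other count filters, no sex term, a replicate block, males or females alone, the compared groups without the others, DESeq2 1.42.0, leaving out each library, no Rn45s-rich libraries, Rn45s left out of the library sizes, expected counts, GC and length offsets, the GC-matched libraries, and, added after the data were seen, limma-voom (limma 3.58.1) with library weights.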

Additional observations from a re-analysis of the deposited data

Results flagged for a closer look

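In 9 of the genes reported, 1 library stood apart from the other 5 of its group. Its gap to its neighbour took more of the group's range than Dixon's critical value for 6 samples allows. Chance gives such a gap in about 1 in 20 groups. Many genes were screened in both genotypes, so gaps like these arise by chance and no flag alone shows a real outlier. In Plcg2KO F2, Fcrls was at 53.3 CPM against 29.9 to 36.3 in the others (0.664 of the range), and Cdk1 at 0.626 CPM against 0.146 to 0.295 (0.627). In Plcg2KO F1, Ppp3ca was at 1680 CPM against 1450 to 1530 (0.639). In Plcg2KO M4, Vtn was at 90.9 CPM against 83.1 to 85.5 (0.682). In Plcg2KO M3, Rpl12 was at 177 CPM against 207 to 223 (0.681), and Rpl11 at 116 CPM against 141 to 157 (0.644). In Plcg2HET, Atp5s was at 8.59 CPM in M2 against 10.8 to 11.7 (0.735), Cox7b at 115 CPM in M1 against 57.2 to 68.7 (0.738), and Banp at 24.7 CPM in M3 against 31.7 to 36.1 (0.658).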

How the results depend on the processing

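Of 128 genes named by the rule in the methods, 77 kept their call and direction in every alternative that gave them a value. For these 77 that was 26 alternatives for Cdk1 and 27 for the others. Another 42 of the 128 genes lost the call in 1 to 4 alternatives, and 9 lost it in 5 or more. The count of called genes, 5746 with all libraries, was 1581 in males only and 1664 in females only, 3512 in a fit of just the compared groups, 3113 without the Rn45s-rich libraries and 2951 in the GC-matched fit; each of these fits has fewer samples. With 1 library left out it ran from 4475 (without Plcg2HET M2) to 7509 (without Plcg2HET M3). In the GC-matched fit 37 named genes lost their call in the same direction and 6 changed sign, none of them called there: Dhcr7 (0.01), Fdps (0.09), Dbp (0.17), Pdgfrb (0.14), Vtn (0.38) and Aplp1 (0.06); the cause was not tested. DESeq2 called 6269 genes, and limma-voom with library weights, added after the data were seen, 7530. With the animal code as a replicate block, 4678 genes were called. The codes are not shown to pair mice: correlations of same-code libraries were 0.157, 0.115, 0.122 and 0.174 for M1, M2, M3 and F2 but -0.0397 for F1, and 4 of 5 Plcg2KO libraries correlated best with their own code. The 2 Plcg2HET libraries of the GC-matched fit, and 29.03% Rn45s in Plcg2HET F3, limit what can be said of small changes.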
